A study of Mus musculus with 7 samples.

Results

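Binding of BMAL1, REV-ERBα and RNA polymerase II (RNAP2) at the cryptochrome genes *Cry1* and *Cry2* was examined in mouse skeletal muscle. A peak was counted for a gene when it overlapped the gene body, introns included, or lay within 10 kb of any annotated transcription start site (TSS) of that gene on mm10. In all, 31 peaks of the 527912 in the 6 peak lists met this rule, 15 at *Cry1* and 16 at *Cry2*. Of these, 15 were BMAL1 peaks, 14 were RNAP2 peaks and 2 were REV-ERBα peaks.

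The series holds 7 samples of gastrocnemius, a predominantly fast calf muscle, from wild-type C57BL/6J male mice, labelled as controls, that were 5 months old and kept on a light-dark cycle with standard chow. BMAL1 and RNAP2 were immunoprecipitated from muscle taken at zeitgeber time (ZT) 4, and REV-ERBα from muscle taken at ZT8, with 2 replicates for each factor. The remaining sample is input DNA, the background against which peaks were called. Because each factor was sampled at a single time, these data hold no comparison of times, and a difference between REV-ERBα and the other factors cannot be told apart from the time of day. Muscle was immunoprecipitated as whole tissue, so that binding in muscle fibers and in the other cells of the muscle cannot be told apart, and more bound cells and more binding per cell cannot be told apart either.

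The CRY1 and CRY2 proteins are the repressors of the mammalian clock. Together with the PER proteins they enter the nucleus and inhibit the CLOCK:BMAL1 heterodimer, which binds E-boxes and drives transcription of the *Cry* and *Per* genes themselves, so that the loop closes on its own activator. A second loop runs through REV-ERBα, a nuclear receptor that represses genes with ROR response elements, and *Cry1* is known to carry such elements in its first intron. This second input is part of what sets the late peak of *Cry1* RNA, whereas *Cry2* is mostly described as a target of E-boxes.

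*Cry1* (ENSMUSG00000020038) lies on the minus strand of chr10:85131700-85185064, and its main transcript, Cry1-201, has 13 exons and starts at position 85185064. *Cry2* (ENSMUSG00000068742) lies on the minus strand of chr2:92403646-92434043, and its main transcript, Cry2-201, has 12 exons and starts at position 92434043. Each gene has 4 annotated transcripts, and distances are given from the start of the main one along the gene strand. The searched windows, with the 10 kb upstream included, were 63365 bp for *Cry1* and 40398 bp for *Cry2*. The 4 sequences shown are those on which the results turn, and all are GRCm38 (mm10) minus-strand sequence outside annotated exons. The first 2 lie under the strongest BMAL1 peaks of each gene, the next lies upstream of the *Cry2* start, and the last is a stretch of *Cry1* intron 1 that no peak of the 6 lists covered. Capitals mark E-boxes (CACGTG) and the E-box-like CACGTT, which reads AACGTG on the other strand, except in the last sequence, where they mark 2 full ROR/REV-ERB monomer sites, the second on the opposite strand.
*Cry1* promoter, chr10:85185065-85185364: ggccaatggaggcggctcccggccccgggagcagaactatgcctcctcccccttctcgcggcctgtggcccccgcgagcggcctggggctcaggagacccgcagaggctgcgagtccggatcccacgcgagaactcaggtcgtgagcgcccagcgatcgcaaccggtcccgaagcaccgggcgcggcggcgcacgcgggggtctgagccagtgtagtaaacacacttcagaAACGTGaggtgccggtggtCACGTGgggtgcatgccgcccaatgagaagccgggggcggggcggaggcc
*Cry2* intron 3, chr2:92423738-92424037: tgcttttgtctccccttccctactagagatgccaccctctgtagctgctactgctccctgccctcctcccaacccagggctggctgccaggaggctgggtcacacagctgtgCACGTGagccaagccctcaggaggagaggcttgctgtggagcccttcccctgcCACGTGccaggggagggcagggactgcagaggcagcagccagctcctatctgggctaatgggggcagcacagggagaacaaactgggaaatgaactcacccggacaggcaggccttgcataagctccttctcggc
*Cry2* promoter, chr2:92434086-92434335: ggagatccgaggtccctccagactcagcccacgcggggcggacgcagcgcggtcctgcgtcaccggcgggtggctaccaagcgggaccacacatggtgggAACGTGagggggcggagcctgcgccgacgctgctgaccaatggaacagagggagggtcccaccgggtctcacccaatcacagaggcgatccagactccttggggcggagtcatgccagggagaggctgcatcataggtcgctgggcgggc
*Cry1* intron 1, chr10:85161879-85162004: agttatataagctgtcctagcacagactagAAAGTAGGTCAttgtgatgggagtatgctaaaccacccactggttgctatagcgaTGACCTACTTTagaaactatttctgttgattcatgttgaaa

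The peak lists differ in length, from 28881 peaks for REV-ERBα replicate 1 to 177669 for BMAL1 replicate 2, and the second list was the longer for every factor. At the average density of each list across the genome, a window as long as that of *Cry1* would hold 0.808 peaks of BMAL1 replicate 1, 4.13 of BMAL1 replicate 2, 0.671 and 0.696 of REV-ERBα, and 2.04 and 3.92 of RNAP2. The strength of a peak is given as its −log10 p at the summit and as its fold enrichment over input, both from the peak caller. The depth of single peaks is unknown, since the lists carry no reads per peak. With 2 lists against 2, an exact permutation test cannot give a two-sided p below 0.333, so no difference between lists was tested and replicate values are given side by side. The labels do not say whether the replicates came from separate animals.

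Both genes had peaks of all 3 factors, although in unequal numbers. At *Cry1* BMAL1 had 3 peaks in replicate 1 and 6 in replicate 2, RNAP2 had 3 and 2, and REV-ERBα had 0 and 1. At *Cry2*, in the same order, BMAL1 had 2 and 4, RNAP2 had 2 and 7, and REV-ERBα had 0 and 1. A single peak of a list is a common event, because 38.2% and 84.4% of the 21938 protein-coding genes had a BMAL1 peak of replicate 1 and replicate 2 in the same kind of window, 38.7% and 40.1% had a REV-ERBα peak, and 76.9% and 86.5% had an RNAP2 peak. Most of the 31 peaks were weak. A −log10 q of at least 1.3, a false discovery rate of about 0.05, was reached by 9 peaks, 5 at *Cry1* and 4 at *Cry2*, whereas 21 peaks had a −log10 q of 0. At *Cry1* these 5 peaks lay on a single stretch around the TSS, and at *Cry2* they were divided between the promoter and intron 3.

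**Figure D1:**
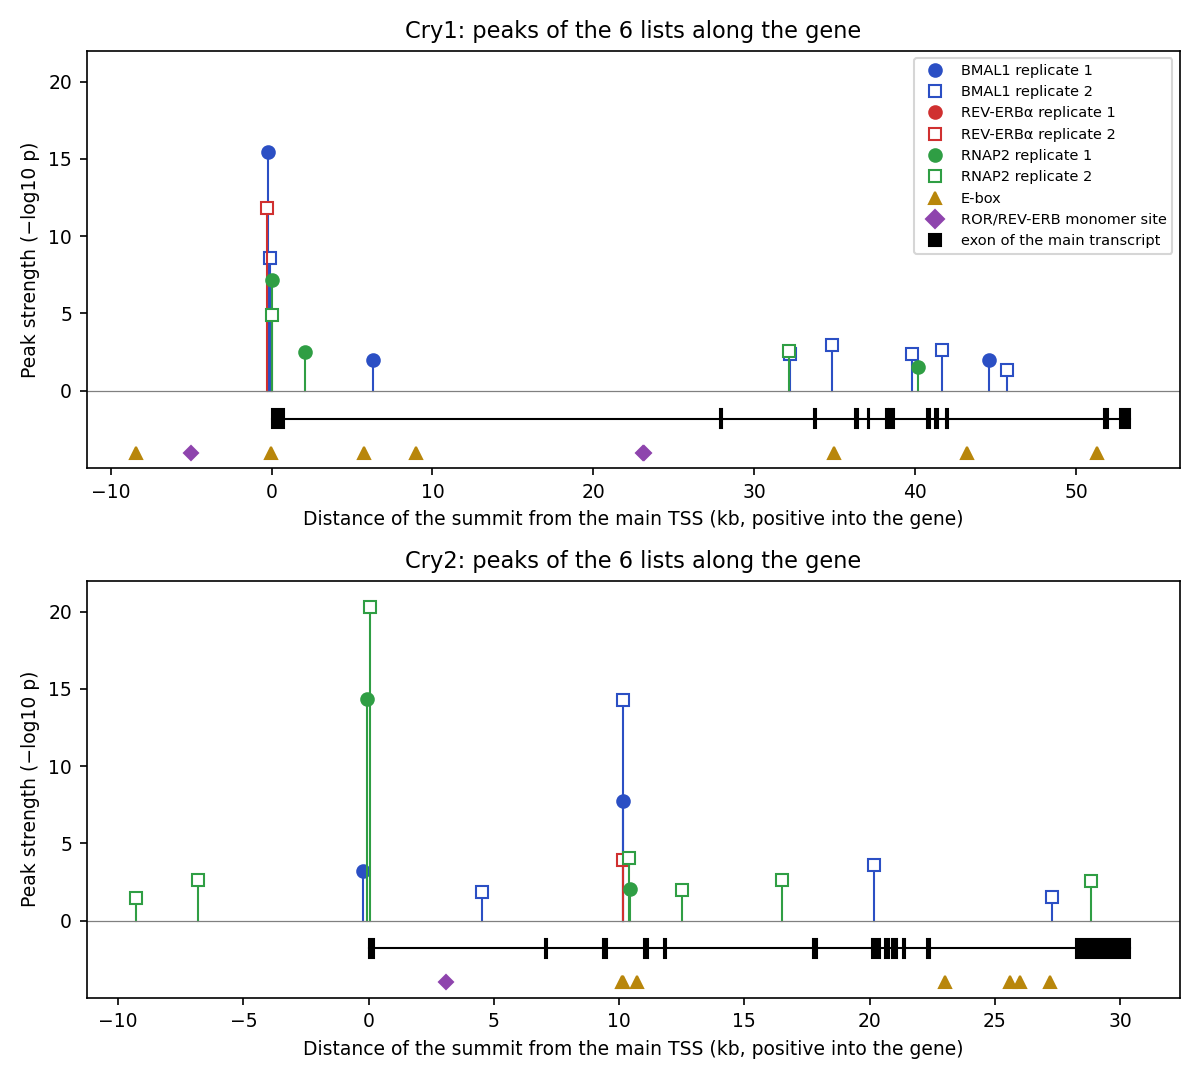
Peaks of the 6 lists along *Cry1* (top) and *Cry2* (bottom), with the distance of each summit from the main TSS in kb on the x axis and the −log10 p of the peak on the y axis; filled circles are replicate 1 and open squares replicate 2, black boxes are exons, triangles are E-boxes and diamonds are full ROR/REV-ERB monomer sites. The strong peaks of *Cry1* sit together at the TSS, whereas those of *Cry2* fall into an RNAP2 group at the TSS and a BMAL1 group 10.2 kb inside the gene.

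BMAL1 bound *Cry1* at its promoter. In replicate 1 the peak spanned 85184695 to 85185705, with a fold enrichment of 5.59, a −log10 p of 15.4 and a −log10 q of 9.70, and it ranked 21 of 34737 peaks. In replicate 2 it spanned 85184952 to 85185448, with a fold enrichment of 4.56, a −log10 p of 8.56 and a −log10 q of 2.88, and it ranked 20 of 177669 peaks. The peak of replicate 2 lay entirely within that of replicate 1. Summits lay 247 bp and 74 bp upstream of the TSS and were 173 bp apart. The median over all 2742 BMAL1 regions was 245 bp (interquartile range 115 to 415 bp). Most of those regions were far weaker than that of *Cry1*, since the weaker −log10 p of both replicates was below 3 from rank 86 on. The mean −log10 p was 12.0 ± 4.87 and the mean fold enrichment 5.08 ± 0.734 (SD, n = 2). The other BMAL1 peaks of *Cry1* were much weaker, with −log10 p values of at most 2.01 in replicate 1 and 2.98 in replicate 2.

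BMAL1 bound *Cry2* within the gene, in intron 3 of 11. In replicate 1 the peak spanned 92423467 to 92424110, with a fold enrichment of 3.90, a −log10 p of 7.77 and a −log10 q of 2.59, and it ranked 59 of 34737 peaks. In replicate 2 it spanned 92423652 to 92424293, with a fold enrichment of 6.57, a −log10 p of 14.3 and a −log10 q of 8.00, and it ranked 9 of 177669 peaks. Summits were 15 bp apart, at 10.2 kb from the main TSS and 8505 bp and 8520 bp from the nearest annotated one. The mean −log10 p was 11.0 ± 4.62 and the mean fold enrichment 5.24 ± 1.89 (SD, n = 2). The *Cry2* promoter itself had a weak BMAL1 peak in replicate 1, 222 bp upstream of the TSS, with a fold enrichment of 2.35, a −log10 p of 3.19 and a −log10 q of 0. In replicate 2 no BMAL1 peak was listed there, and the nearest ended 4412 bp away in intron 1, with a −log10 p of 1.87.

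Merging the peaks of both replicates gave a single BMAL1 region at each gene. Such a region was found at 6.81% of protein-coding genes, and at 8.47% of genes with a window about as long as that of *Cry1* and 5.47% of those with a window about as long as that of *Cry2*. Both regions were among the strongest of the list. When regions were ordered by the weaker of their 2 −log10 p values, the *Cry1* promoter ranked 13 and the *Cry2* intron 16 of 2742 BMAL1 regions. The 16 regions that reached 7.77 in both replicates belonged to 20 protein-coding genes, 0.0912% of the 21938, a threshold set by the *Cry2* value itself. Of the replicate 1 peaks at least as strong as that of *Cry1*, 10 of 21 overlapped a replicate 2 peak. For the *Cry2* value it was 34 of 59. In the other direction, 18 of 20 and 7 of 9 replicate 2 peaks overlapped a replicate 1 peak. The order of both cryptochromes turned around between replicates, since *Cry1* was the higher in replicate 1 (15.4 against 7.77) and *Cry2* in replicate 2 (14.3 against 8.56). The difference between their means was smaller than the spread between replicates, so the lists give no order of BMAL1 strength between the 2 genes.

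**Figure D2:**
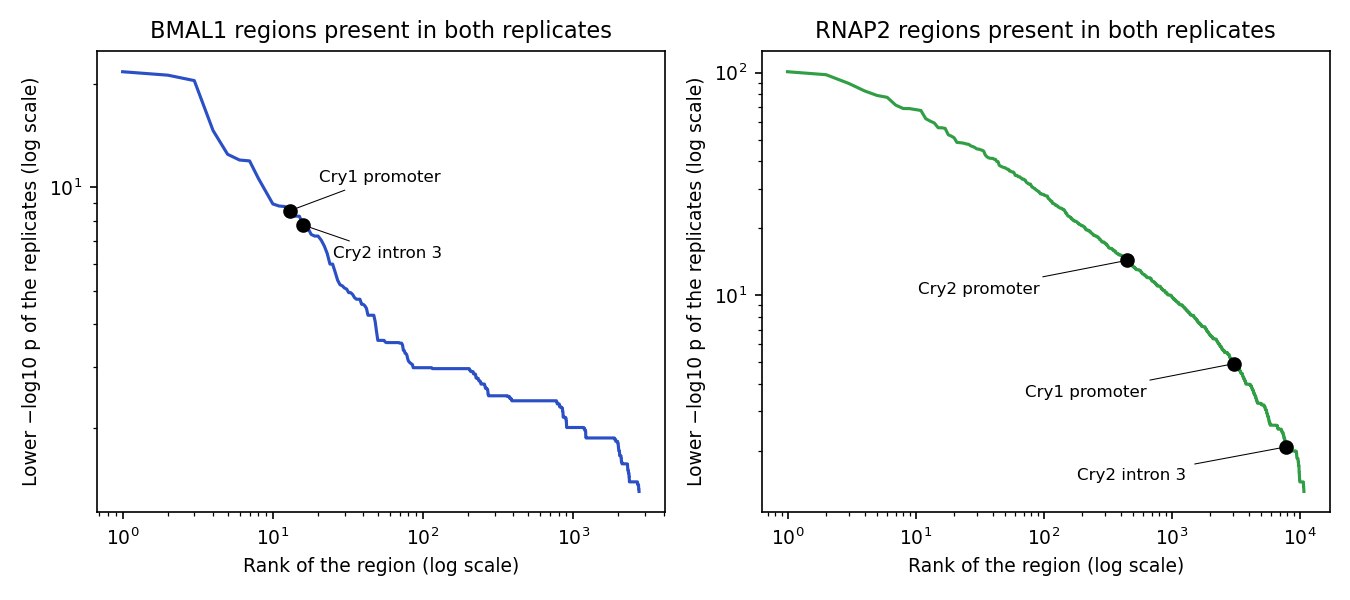
Regions with a peak in both replicates, ordered by the weaker of their 2 −log10 p values, for BMAL1 (left, 2742 regions) and RNAP2 (right, 10752 regions); both axes are logarithmic and black points mark the regions at *Cry1* and *Cry2*. Both BMAL1 regions sit near the top of the curve at ranks 13 and 16, whereas the RNAP2 regions lie at ranks 443, 3038 and 7739.

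Both sites held canonical E-boxes. The *Cry1* promoter had a CACGTG at positions −50 to −45 (85185109 to 85185114) and a CACGTT at −69 to −64, with 13 bases between them. Its intron 1 had another E-box under a weak BMAL1 peak of replicate 1. The *Cry2* intron had 2 copies of CACGTG, at 92423867 to 92423872 and 92423920 to 92423925, with 47 bases between them. An E-box was within 100 bp of the summit at 2.55% of all BMAL1 regions, and within 250 bp at 4.85%. Within 100 bp, the *Cry2* intron had its E-boxes near the summits of both replicates, and the *Cry1* promoter near that of replicate 2 alone. Over 32851 RefSeq promoters of 300 bp on GRCm38, 7.15% held CACGTG and 4.68% held CACGTT on either strand. *Cry1* had 1 of each, and *Cry2* had no CACGTG and 1 CACGTT, which lay 32.5 bp from the summit of its weak promoter peak.

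The BMAL1 summits of *Cry2* lay close to the E-boxes in both replicates, and that of *Cry1* did so in replicate 2 alone. Only the *Cry2* summit of replicate 2, at 92423872, lay inside an E-box. At *Cry2* the centre of the nearer E-box was 17.5 bp from the summit of replicate 1 and 2.5 bp from that of replicate 2, and the centre of the other was 35.5 bp and 50.5 bp away. At *Cry1* the E-box was 26.5 bp and the CACGTT 7.5 bp from the summit of replicate 2, but 199.5 bp and 180.5 bp from that of replicate 1. Each searched window held 7 E-boxes, of which 2 at *Cry1* and 3 at *Cry2* lay inside a BMAL1 peak of either replicate. Only the *Cry1* promoter E-box and the intron 3 pair of *Cry2* lay inside peaks of both replicates. The looser CACGNG, which also matches every CACGTG, was far more common, with 35 matches at *Cry1* and 26 at *Cry2*, and 9 and 5 of them were under BMAL1 peaks. The RefSeq promoters of both genes are rich in G and C, at 72.3% for *Cry1* and 70.3% for *Cry2* against a median of 52.7%.

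**Figure D3:**
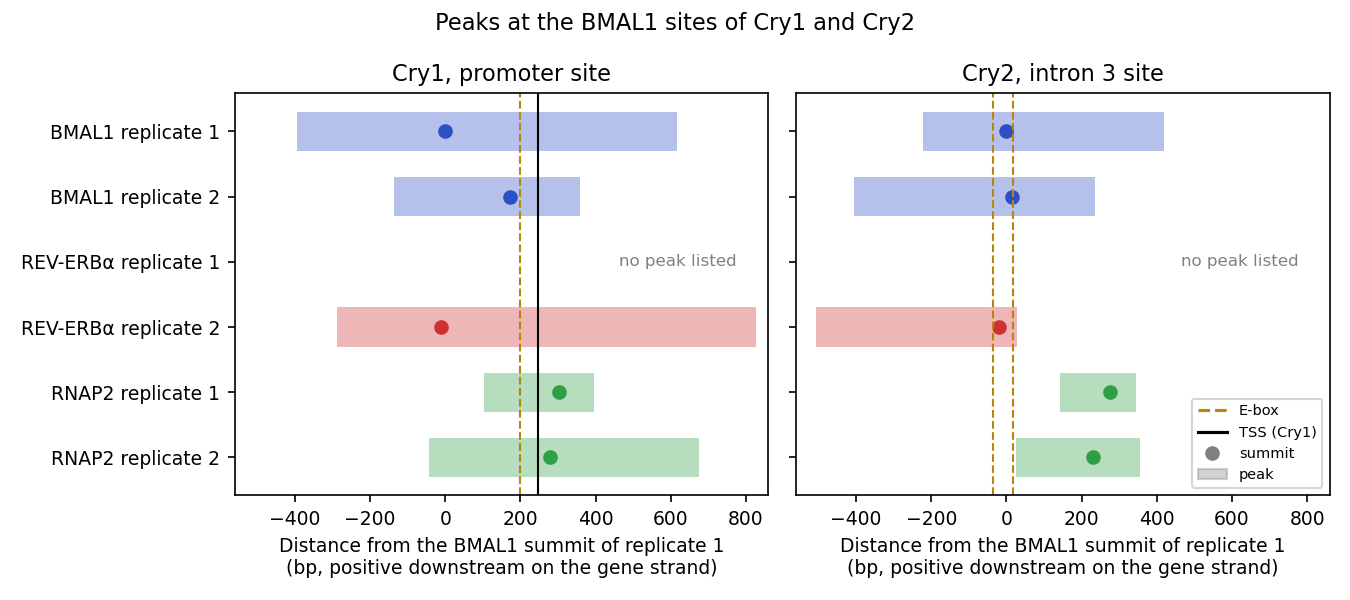
Peaks of the 6 lists at the *Cry1* promoter (left) and in *Cry2* intron 3 (right), by distance in bp from the BMAL1 summit of replicate 1, positive downstream on the gene strand; bars span each peak, points mark summits, dashed lines mark E-boxes and the solid line marks the *Cry1* TSS. BMAL1 and REV-ERBα summits lie close together at both sites except for BMAL1 replicate 2 at *Cry1*, and the RNAP2 summits lie 230 to 304 bp downstream of the BMAL1 summit of replicate 1.

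REV-ERBα was listed at both BMAL1 sites, each time in replicate 2 alone. At *Cry1* the peak spanned 85184485 to 85185600, with a fold enrichment of 5.00 and a −log10 q of 7.02, and it ranked 142 of 29934 peaks. Its summit was 258 bp upstream of the TSS, 11 bp from the BMAL1 summit of replicate 1 and 184 bp from that of replicate 2. At *Cry2* the peak spanned 92423858 to 92424394, with a fold enrichment of 2.79 and a −log10 q of 0, and it ranked 1665. Its summit was 19 bp from the BMAL1 summit of replicate 1 and 34 bp from that of replicate 2. The *Cry1* TSS was 53541 bp and the *Cry2* TSS 53950 bp away from any REV-ERBα peak of replicate 1, the nearest ones having −log10 p values of 2.02 and 2.50. Neither cryptochrome thus had a REV-ERBα region in both replicates, a region that 4.44% of protein-coding genes had.

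REV-ERBα peaks as strong as that of *Cry1* mostly had a partner in replicate 1, and those as strong as that of *Cry2* mostly had none. Of the 142 REV-ERBα peaks of replicate 2 that were at least as strong as the *Cry1* peak, 138 overlapped a peak of replicate 1 (97.2%, exact 95% binomial interval 92.9 to 99.2%), and the *Cry1* peak was 1 of the 4 that did not. Of the 1672 that were at least as strong as the *Cry2* peak, 448 did (26.8%, 24.7 to 29.0%). These intervals cover counting error over peaks only. With 3 or more of the 4 lists of the transcription factors required, each gene had 1 shared site, and 1.62% of protein-coding genes had such a site. At a −log10 q of at least 1.3 the *Cry2* site was lost, since its REV-ERBα peak has a −log10 q of 0, and that of *Cry1* was kept. Of all 550 such sites, 93 had the combination seen at both cryptochromes, with REV-ERBα in replicate 2 and not in replicate 1, and as many had the opposite, with replicate 1 in place of replicate 2.

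No full ROR/REV-ERB monomer site, an A/T-rich stretch followed by the half-site recognised by a single REV-ERBα molecule, lay under a REV-ERBα peak at either gene. *Cry1* had 3 such sites, and 2 of them formed the pair printed from intron 1, at 85161909 to 85161919 and 85161964 to 85161974, 23.1 kb inside the gene. The nearest REV-ERBα peak to this pair was 30386 bp away in replicate 1 and 22511 bp away in replicate 2, and the nearest peak of any list was a BMAL1 peak of replicate 2 at 8760 bp. The remaining *Cry1* site was 5035 bp upstream of the TSS and 4489 bp from the promoter peak of replicate 2. The single *Cry2* site was in intron 1, 3103 bp from the TSS and 6536 bp from the intron 3 peak. Over all 1263 REV-ERBα regions with peaks in both replicates, 0.158% had a full site within 100 bp of the summit, so that this search finds few sites anywhere. The bare half-site GGGTCA was present once near the *Cry2* summit, 32.5 bp away, and 8.63% of REV-ERBα regions had it within 100 bp. Near the *Cry1* summit, within 100 bp, neither GGGTCA nor AGGTCA was present. E-boxes lay 16.5 bp and 36.5 bp from the REV-ERBα summit of *Cry2* and 210.5 bp from that of *Cry1*, and 3.40% of REV-ERBα regions had one within 100 bp.

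RNAP2, the polymerase that transcribes protein-coding genes, was listed at the start of both genes in both replicates, and more strongly at *Cry2*. At *Cry1* the fold enrichment was 4.14 and 3.44 and the −log10 p was 7.17 and 4.91, with summits in exon 1, 57 bp and 31 bp downstream of the TSS. At *Cry2* the fold enrichment was 7.31 and 7.96 and the −log10 p was 14.3 and 20.3, with summits 69 bp upstream and 48 bp downstream of the TSS. The values of both genes did not overlap, at a mean fold enrichment of 3.79 ± 0.498 for *Cry1* and 7.64 ± 0.459 for *Cry2* (SD, n = 2). In the same ordering, the *Cry2* promoter ranked 443 and the *Cry1* promoter 3038 of 10752 RNAP2 regions. An RNAP2 region in both replicates was common, at 41.1% of protein-coding genes, and 4.22% had both an RNAP2 and a BMAL1 region. Both cryptochromes also had the REV-ERBα peak of replicate 2, and 3.26% of protein-coding genes had all of these.

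*Cry2* had a further RNAP2 region at its BMAL1 site in intron 3. The peaks were weak, with a fold enrichment of 2.21 and 3.03 and a −log10 p of 2.08 and 4.02, and neither reached a −log10 q of 1.3. Their summits were 275 bp and 230 bp downstream of the BMAL1 summit of replicate 1, and neither peak held an E-box. At *Cry1* the RNAP2 summits were 304 bp and 278 bp downstream of the same reference, where the TSS lies between them and the BMAL1 summits. The *Cry2* intron is also covered by D930015M05Rik (ENSMUSG00000084781), a noncoding transcript on the opposite strand at chr2:92408892-92432308, and the peak lists carry no strand, so the RNAP2 signal cannot be assigned to either.

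**Figure D4:**
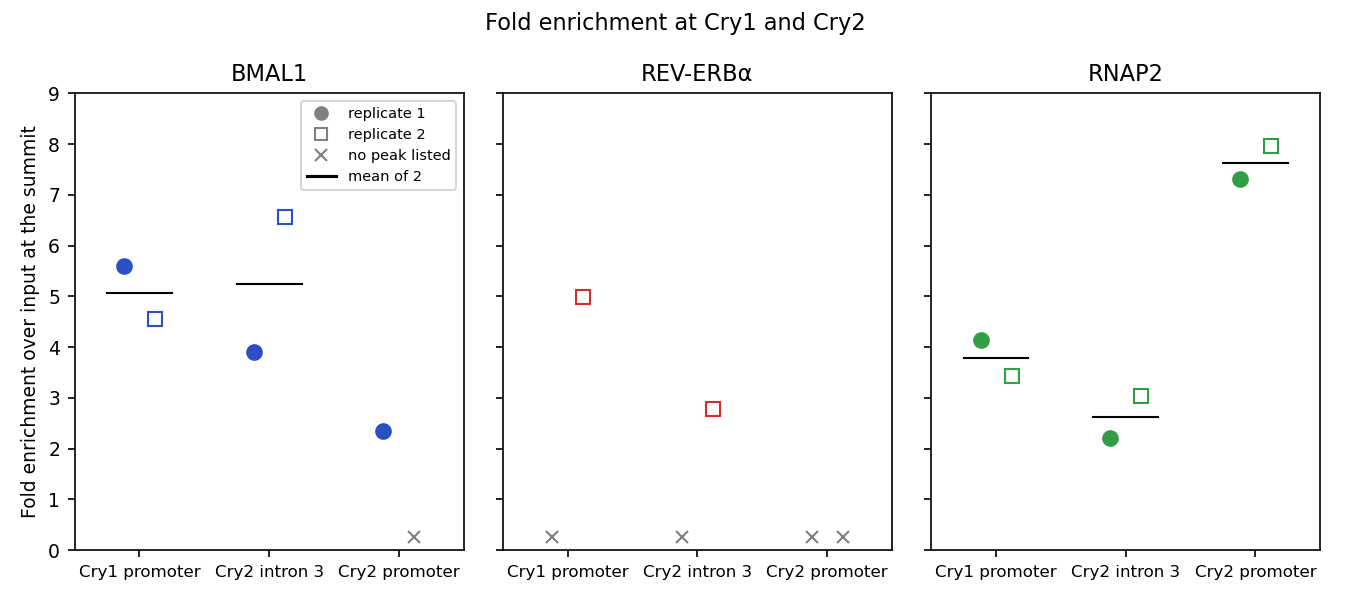
Fold enrichment over input at the summit for BMAL1, REV-ERBα and RNAP2 at the *Cry1* promoter, in *Cry2* intron 3 and at the *Cry2* promoter; circles are replicate 1, squares replicate 2, crosses mark lists without a peak and bars are means of 2 replicates. BMAL1 values overlap between the *Cry1* promoter and the *Cry2* intron, whereas RNAP2 values at the *Cry2* promoter, 7.31 and 7.96, lie above both values at *Cry1*.

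The remaining peaks were weak and mostly stood alone, since 16 peaks, 8 at each gene, overlapped no peak of any other list. All 8 at *Cry1* had their summit in an intron, whereas at *Cry2* 4 lay in introns, 2 in exons and 2 upstream of the gene. In *Cry1* the long intron 1 held a BMAL1 peak of replicate 1 (2.01, 6287 bp from the TSS) and an RNAP2 peak of replicate 1 (2.50, 2094 bp), each given by its −log10 p. The 5 weak BMAL1 peaks of replicate 2 at *Cry1* lay in introns 2, 3, 7, 9 and 10, with −log10 p values from 1.36 to 2.98. At 32.2 kb, in intron 2, BMAL1 and RNAP2 of replicate 2 overlapped, with −log10 p values of 2.40 and 2.59. In *Cry2* the highest of the weak BMAL1 peaks was in replicate 2 over exon 7, with a −log10 p of 3.60, and the RNAP2 peaks of replicate 2 outside the promoter and intron 3 ran from 1.45 to 2.60. Of these, the peak with its summit 9270 bp upstream of the *Cry2* TSS was the nearest to the outer edge of the window, with a −log10 p of 1.45. Just outside, within 2 kb of the edges, lay 5 peaks, all at *Cry1*. Of these, 4 followed the end of the gene, among them a BMAL1 peak of replicate 2 with a −log10 p of 4.25 at 134 bp past the end and the REV-ERBα peak of replicate 1 with a −log10 p of 2.02 at 177 bp. The fifth was a REV-ERBα peak of replicate 2 with a −log10 p of 2.64, 511 bp beyond the upstream edge.

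The cryptochromes were then set beside 11 other genes that E-boxes drive, the period genes, the REV-ERB genes, *Ciart*, *Bhlhe40*, *Bhlhe41* and the PAR bZIP genes *Dbp*, *Tef* and *Hlf*. Of these 13 genes, 12 had a BMAL1 region in both replicates, beside 6.81% of all protein-coding genes. At 7.77 in both lists, the threshold that the *Cry2* value sets, 8 had such a region, *Cry1* and *Cry2* included, beside 0.0912% of all. The genes of the list were chosen as known BMAL1 targets, so these counts are a description. By the strongest BMAL1 peak, *Cry1* was place 8 of 13 in both replicates, with 15.4 and 8.56 against medians of 16.6 and 8.80. *Cry2* was place 11 in replicate 1 and place 4 in replicate 2. *Per1*, the highest in replicate 1, reached 36.5 and 21.2, and *Nr1d1*, which encodes REV-ERBα and was the highest in replicate 2, reached 20.4 and 31.6. Both cryptochromes thus lay within the range of the group, and at the low end of it at *Cry2* in replicate 1.

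In REV-ERBα binding the cryptochromes stood with *Hlf* as the 3 of the 13 genes that lacked a region in both replicates. Most protein-coding genes lacked one too, since 4.44% had such a region. *Cry1*, *Cry2* and *Hlf* had no REV-ERBα peak in replicate 1, where the other 10 genes ranged upward from 3.48 at *Per3*. In replicate 2 all 13 genes had a peak, *Cry1* with 11.8 above the median of 7.31 and *Cry2* with 3.93 below it. Over all protein-coding genes, 38.7% had a REV-ERBα peak of replicate 1 and 40.1% had a peak of replicate 2. For RNAP2, *Cry1* was low among these genes, with 7.17 and 4.91 against medians of 14.3 and 14.5, whereas *Cry2* had 14.3 and 20.3. Only *Hlf* had a lower RNAP2 peak than *Cry1* in replicate 1, and only *Hlf* and *Per2* in replicate 2. *Per2* and *Hlf* were also the 2 genes of the list without an RNAP2 region in both replicates. Such a region was present at 41.1% of protein-coding genes.

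**Figure D5:**
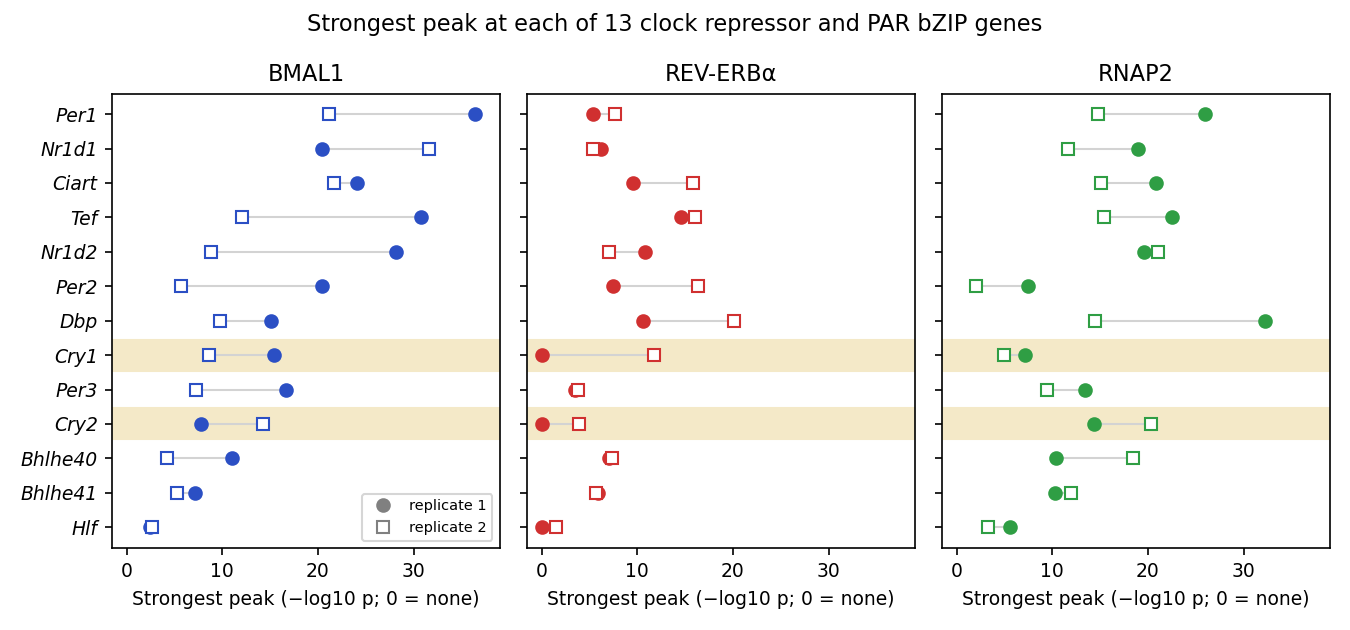
Strongest peak at each of 13 clock repressor and PAR bZIP genes, as −log10 p, for BMAL1, REV-ERBα and RNAP2; circles are replicate 1, squares replicate 2, a value of 0 means no listed peak, and shading marks *Cry1* and *Cry2*, with genes ordered by the sum of their BMAL1 values. For BMAL1 *Cry1* is place 8 of 13 in both replicates and *Cry2* place 11 and place 4, and both, with *Hlf*, are at 0 for REV-ERBα replicate 1.

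Genes that act on the cryptochromes or on the other arm of the clock were counted in the same way, beside the 6.81% of protein-coding genes with a BMAL1 region, 4.44% with a REV-ERBα region and 41.1% with an RNAP2 region. Those shares are not matched for window length. Some of these genes had long windows, such as 176280 bp at *Btrc* and 167084 bp at *Gsk3b* against 63365 bp at *Cry1*. Of 11 genes for the stability or modification of CRY proteins, 2 had a BMAL1 region in both replicates, *Gsk3b* and *Cul4a*, 0 had a REV-ERBα region and 8 had an RNAP2 region. Values given here are the −log10 p of the strongest peak of each replicate anywhere in the window. They need not belong to the region counted. *Gsk3b*, a kinase that phosphorylates CRY2, had BMAL1 values of 4.72 and 2.40 and RNAP2 values of 11.3 and 3.25. *Fbxl21*, an F-box protein, had BMAL1 values of 3.0 and 3.6 and no RNAP2 peak in replicate 1. *Prkaa2*, the AMPK subunit typical of muscle, had RNAP2 values of 25.6 and 14.9, above those of *Cry1*. Of 6 activator and ROR genes, 1 had a BMAL1 region (*Clock*), 0 had a REV-ERBα region and 3 had an RNAP2 region. The strongest BMAL1 peaks anywhere in the *Clock* window had values of 3.0 and 3.6. *Arntl*, which encodes BMAL1, had REV-ERBα peaks of 3.57 and 1.69 that did not overlap. Of these 17 genes, 0 had a BMAL1 region that reached 7.77 in both replicates and 0 had a shared site in 3 or more of the 4 transcription factor lists, beside 0.0912% and 1.62% of all protein-coding genes, shares at which a count of 0 is no result about these genes.

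Across all 21938 protein-coding genes, the pattern over the 6 lists that came nearest to *Cry1* was that of *Ap1g1*, followed by *Mex3c*, *Exoc6*, *Cnot1* and *Gm42791*. The distance was the Euclidean one between values of log2(1 + −log10 p), and it was 2.28 for *Ap1g1*. *Cry2* was place 62 for *Cry1*. The nearest to *Cry2* were *Psme4*, at a distance of 1.68, *Igsf8*, *Bnip3*, *Ube2k* and *Man2a1*, and *Cry1* was place 181. The first 4 genes nearest to *Cry1* and all 5 nearest to *Cry2* had, like the cryptochromes, no REV-ERBα peak in replicate 1 but a peak in replicate 2, values that entered the distance. The nearest protein-coding neighbours in the genome were *Mterf2*, 3673 bp past the end of *Cry1*, and *Btbd11*, 201750 bp upstream of it, and *Mapk8ip1*, 2383 bp past the end of *Cry2*, and *Slc35c1*, 18721 bp upstream of it. The strong BMAL1 sites lay nearer to a TSS of *Cry1* and *Cry2* than to the start of any of these neighbours.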

How the data were processed

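The 6 lists of ChIP-seq peaks hold 2 replicates each for BMAL1 (ZT4), REV-ERBα (ZT8) and RNAP2 (ZT4), and the input sample entered only through the peak calling. The authors mapped reads to mm10, dropped duplicates and reads with several hits, evened out the depth of replicates by down-sampling, and ran MACS2 for every sample against input with a p cutoff of 0.05. The submitters' processing notes name BWA 7.12 and MACS2 2.1.1. The deposited fold enrichment is the ratio of the pileup at the summit to the local background, as the authors' MACS2 run gave it. The deposited −log10 p and −log10 q are also those of the authors' run at the summit. The deposited score repeats −log10 p and was not used. Reads per peak are not in these lists, so precision at a peak is limited to the spread between 2 replicates, and the depth behind it is unknown.

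Peaks were assigned with GENCODE M21 on GRCm38. Peaks of different lists that overlapped by at least 1 bp were merged. A region needed a peak in both replicates, and regions were ordered by the weaker of both −log10 p values. The background is the share of the 21938 protein-coding genes with the same call in a window built the same way. Motifs were exact matches on both strands, in genome sequence and in 32851 RefSeq promoters of GRCm38, and a palindromic match was counted once. No test across samples was run. Genes named are *Cry1*, *Cry2*, those of 3 lists (clock repressors and PAR bZIP factors, activators and ROR, CRY stability and modification), the genomic neighbours, and the 5 genes nearest to each cryptochrome in pattern. One gene of the last list is not reported here and was left out of its counts. The members and lists were chosen with earlier results of these data known. Alternatives were stricter peaks, other overlap rules, windows and TSS sets, equal list lengths, other motif windows and leaving out each list. The code was tested on simulated lists, and the tools were pysam 0.24.0, numpy 2.4.6, scipy 1.17.1 and matplotlib 3.10.9 under Python 3.11.15.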

Additional observations from a re-analysis of the deposited data

How the results depend on the processing

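Of 108 alternative counts at *Cry1* and *Cry2*, 81 stayed within 1.5 times the reported count and 27 did not. The 27 came from settings with fewer peaks, fewer lists or another search width. When a list was left out, a region rested on the other replicate alone. The range was 3 to 6 BMAL1 regions, 0 to 1 REV-ERBα regions and 2 to 3 RNAP2 regions at *Cry1*, and 2 to 4, 0 to 1 and 2 to 7 at *Cry2*. A shared site then needed a peak in all 3 transcription factor lists that were left. Both sites had peaks in exactly 3 of the 4 lists. The count was therefore bound to be 1 without REV-ERBα replicate 1, and 0 without any other, at both genes. With −log10 p of at least 3, or −log10 q of at least 1.3, *Cry2* kept 1 of its 2 RNAP2 regions, and under the latter it had 0 shared sites. The same thresholds left the RNAP2 region and the shared site of *Cry1* in place. The RNAP2 region that *Cry2* lost was that of intron 3, with a −log10 p of 2.08 in replicate 1, and its promoter region was kept. Its shared site was lost through its only REV-ERBα peak, which has a −log10 q of 0. With the 28881 strongest peaks of every list, *Cry1* had 2 peaks of BMAL1 replicate 2 and 1 of each RNAP2 replicate, and *Cry2* had 2 of BMAL1 replicate 2, 1 of RNAP2 replicate 1 and 2 of RNAP2 replicate 2. Peaks with the same −log10 p at the cutoff were ordered by fold enrichment and then by genome position. The weaker *Cry1* peak of BMAL1 replicate 2 and weak *Cry2* peaks of RNAP2 replicate 2 were in such ties, so those counts depend on this order. Within 250 bp of the *Cry1* summits of BMAL1 replicate 1 and REV-ERBα replicate 2 there was 1 E-box, against 0 within 100 bp, and within 50 bp of the *Cry2* summit of BMAL1 replicate 2 there was 1, against 2. The single BMAL1 region of each gene was retained under both stricter thresholds. No paired analysis was possible because the results are overlaps of lists and come from no test. With 2 replicates and no reads per peak, a list without a peak does not show absence of binding.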

Other observations

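The *Cry1* peak was 1 of 4 REV-ERBα peaks of replicate 2 with a −log10 p of at least 11.8 and no overlapping peak in replicate 1. The other 3, which were looked up after their values were seen, were nearest to the starts of *Fbxo33* (12.8, 37 bp from its TSS), 1600014C10Rik (11.8, in a peak 10571 bp wide) and *Zfy1* (12.1, 538242 bp from its TSS, with a fold enrichment of 1.78). The *Cry1* peak had a width of 1116 bp and a fold enrichment of 5.00. Matches to TTANNTAA, a loose pattern for the D-box of the PAR bZIP factors and of NFIL3, numbered 24 in the *Cry1* window and 11 in the *Cry2* window. Its central bases are free, so a match need not be such a site. Of these, 1 lay inside a BMAL1 peak, in *Cry1* intron 1 and 326.5 bp from its summit, and 0 lay inside a REV-ERBα peak. Over all regions, 10.5% of BMAL1 and 5.70% of REV-ERBα regions had a match within 100 bp of the summit.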
